A study of Mus musculus with 6 samples.

Results

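The TGF-beta ligands, their receptors, the latent TGF-beta binding proteins and a pair of SMAD proteins were followed in primary dermal fibroblasts that had been exposed to endothelin 1 (Et1), a vasoconstrictor peptide sensed by receptors of the G protein class. The members were 10 of the 18193 genes named on the array: Tgfb1, Tgfb2, Tgfb3, Tgfbr1, Tgfbr2, Ltbp1, Ltbp2, Ltbp3, Smad3 and Smad7. They were found through the 26 probe sets, of 45037 on the array, whose platform annotation names exactly 1 gene and that gene is a member. The cells had grown out of skin explants of newborn mouse pups of the B6 strain and mixed sex (0 to 2 days old per the sample labels) and were used at passage 6. The design text of the study gives slightly wider ages and an earlier passage for the split into cultures. The Et1 group received 100 nM of freshly made synthetic Et1 for 24 hours (3 arrays), and the control group was cultured alike with nothing added (3 arrays). Both groups share the strain, the passage and medium with 10% fetal bovine serum. The labels call the arrays of a group biological replicates without naming animals, so p-values measure the spread between these arrays, and 3 arrays per group limit the precision of every comparison.

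TGF-beta is secreted bound to its own propeptide, and this latent complex is tied to the extracellular matrix by the latent TGF-beta binding proteins until integrins, proteases or thrombospondin release the ligand. Free ligand is bound by the type II receptor, which activates the type I receptor. The type I receptor phosphorylates SMAD2 and SMAD3, which move to the nucleus with SMAD4. SMAD7 is induced by the pathway and blocks the receptor. In dermal fibroblasts the pathway is known for driving collagen production and contractile protein expression in wound repair and fibrosis.

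The promoter stretches of Tgfb2, Ltbp1, Tgfbr1 and Tgfb1 are shown because the first 3 genes had lower signals in Et1 cultures in a main probe set, while the main probe set of Tgfb1, the best known ligand, had log2 differences near 0 between the groups within each set of arrays described below. Each is the 150 bases just before the transcription start in the RefSeq promoter table (build GRCm38.p6), written 5′ to 3′ on the strand of the gene. Capitals mark matches, on either strand, to the cAMP response element (TGACGTCA), the E-box (CACGTG), the TATA box (TATAAA), the CCAAT box (CCAAT), the GC box (GGGCGG), the AP-1 site (TGACTCA) or the SMAD palindrome (GTCTAGAC).
Tgfb2, minus strand, chr1:186705990-186706139: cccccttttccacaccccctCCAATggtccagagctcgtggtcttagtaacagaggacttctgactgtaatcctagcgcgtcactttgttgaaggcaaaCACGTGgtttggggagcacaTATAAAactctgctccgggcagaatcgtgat
Ltbp1, plus strand, chr17:75005379-75005528: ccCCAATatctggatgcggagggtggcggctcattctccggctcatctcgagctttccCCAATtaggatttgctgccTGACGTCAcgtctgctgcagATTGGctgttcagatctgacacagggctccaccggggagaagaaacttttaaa
Tgfbr1, plus strand, chr4:47353072-47353221: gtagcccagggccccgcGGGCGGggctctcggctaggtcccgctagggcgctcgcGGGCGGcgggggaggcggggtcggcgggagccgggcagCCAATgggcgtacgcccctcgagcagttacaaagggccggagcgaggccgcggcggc
Tgfb1, plus strand, chr7:25686852-25687001: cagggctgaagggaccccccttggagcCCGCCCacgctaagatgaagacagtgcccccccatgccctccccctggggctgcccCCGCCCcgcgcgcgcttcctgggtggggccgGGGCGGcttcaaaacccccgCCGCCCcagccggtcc

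The table held promoters for 8 of the 10 members, 10 promoters in all, and the motifs were searched in the 250 bases before each start. No match overlapped another. Positions count back from the start, with the last base before it at -1, and give the first base of the match. The promoter of Tgfb2 held a TATA box at -31, an E-box at -51 and a CCAAT box at -130. Of 32851 promoters in the table, 12.4% held the TATA box, 6.02% the E-box and 33.8% the CCAAT box. The first promoter of Ltbp1 held a cAMP response element at -73, which 1.55% of promoters held, between CCAAT boxes at -92 and -53. The promoter of Tgfb1 held 5 GC boxes, a motif found in 32.7% of promoters, and none of the other letters searched, and 75.2% of its 250 bases were G or C against 53.6% in Tgfb2. The AP-1 site (4.46% of promoters) and the SMAD palindrome (0.167%) were in none of the 10 promoters. A match is a description of the letters and shows no binding.

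Signals were linear values per probe set, scaled so that each array had the same mean after trimming 2% of the values at each end; the deposited trimmed means ran from 91.7 to 179. The test covered probe sets with an average at or above 41.0, the median of all probe sets, and 21 of the 26 members qualified. Among the tested ones were some that passed through the control arrays, so the counts over these 21 are a description and not support. Fibroblast markers were bright, with 11 of 12 above that filter (Lum, a proteoglycan, was not), and their summed signal was 16975 to 28833 in Et1 and 24266 to 38383 in control arrays. Of the 11, 10 had lower and 1 higher mean log2 signals in Et1 arrays. Named after their values were seen, Prrx1, a transcription factor of mesenchyme, fell (log2 fold change -0.92, limma adjusted p = 0.0307), and Pdgfrb, a growth factor receptor, did not overlap between the groups (-1.14, limma adjusted p = 0.0615). Thy1, a surface glycoprotein, stood at -1.18 and Col3a1, a collagen chain, at -1.26, and both overlapped. Their part in the members' differences was not tested. The arrays were also split by the mean log2 signal of 12 probe sets for Bacillus transcripts, which serve as spike-in controls of labelling. The cut was put at the widest gap between these means, a rule that splits any arrays into a pair of sets. Whether such controls were added was not given in the sources used here. That mean was 5.29 to 6.35 on Et1 replicates 1 and 3 and control replicate 3, called the high set here. It was 3.61 to 4.03 on Et1 replicate 2 and control replicates 1 and 2, called the low set. On the log2 scale, the means of the low set and that of Et1 replicate 3 lay below the filter, so the split rests largely on dim signals. High minus low, with the group in the fit, 16.7% of all tested probe sets passed an adjusted p of 0.05. Values within the sets therefore stand beside several of the pooled ones below. Each value within a set rests on 1 array on one side: Et1 replicate 2 in the low and control replicate 3 in the high set. With the set as a block, the fibroblast markers Prrx1 (-0.92), Pdgfrb (-1.04), Thy1 (-0.83) and Col3a1 (-0.93) passed in their brightest probe sets. Their limma adjusted p were 0.00253, 0.00684, 0.0106 and 0.0163, and 4.47% of all genes passed under that block. The other tested fibroblast markers did not pass in theirs. The ratio of 3′ to 5′ signal of Gapdh, a sign of RNA integrity, was 0.677 to 0.757 in Et1 and 0.728 to 0.775 in control arrays.

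In Et1 cultures the transcript of Tgfb2 fell in 1 of its 4 probe sets, and the other 3, together with the single probe set of Tgfb3 and the 3 of Tgfbr1, gave lower signals in every Et1 array than in any control array without passing the threshold. The main probe set of Ltbp1 and 1 of the 3 of Smad3 also did not overlap between the groups. Tgfb1, Tgfbr2, Ltbp2, Ltbp3 and Smad7 overlapped in every tested probe set. Of the 21 tested probe sets, 1 passed limma's adjusted p of 0.05 over all 22519 probe sets, of which 0.346% passed and 0.249% passed lower, and at an unadjusted p under 0.05 there were 10, all lower in Et1 (12.3% of all probe sets in both directions, 6.38% lower). The 3 Et1 signals lay below the 3 control signals for 10 of the 21 and above them for 0, where over all tested probe sets 17.6% did not overlap, with 8.11% below and 9.47% above. Mean log2 signals were lower in Et1 arrays for 18 of the 21, against 45.9% of all. Probe sets of 1 gene share its transcript and are not independent of each other: 7 of the 10 belong to Tgfb2 and Tgfbr1. Blocking on the spike-in set, 6 of the 21 passed, all lower, against 3.85% of all tested probe sets in both directions and 2.47% lower; blocking on the replicate number, 6 passed too, against 2.52%. These were 3 of Tgfb2 and 1 each of Tgfb3, Tgfbr1 and Ltbp1. In RNA from whole cultures, fewer cells that express a gene and less RNA per cell cannot be told apart.

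**Figure D1:**
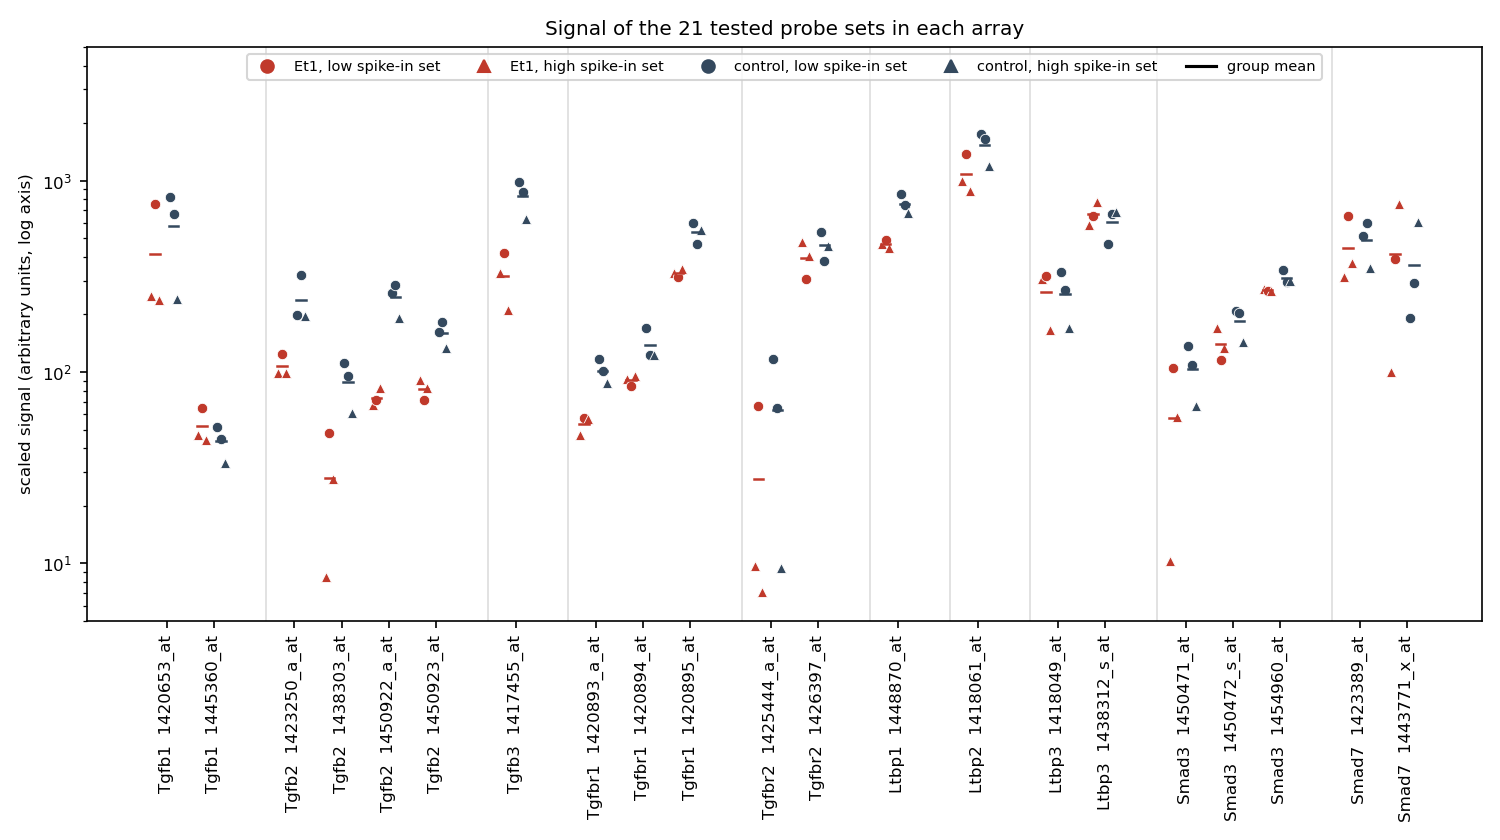
Scaled signal (log axis) of each tested probe set in each array, Et1 in red at the left and control in dark blue at the right of each pair; circles are arrays of the low and triangles arrays of the high spike-in set, and bars are group means. The 4 probe sets of Tgfb2, that of Tgfb3 and the 3 of Tgfbr1 show no overlap of the groups, and the triangles of Tgfb1 1420653_at lie between 239 and 251 whatever the group.

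Among the ligands, Tgfb2, the isoform with its own roles in heart, eye and palate development, had 4 probe sets, all above the filter. Probe set 1450922_a_at had signals of 67.0, 71.4 and 82.1 in Et1 replicates 1 to 3, against 259.9, 285 and 191 in control replicates 1 to 3. The lowest control signal was thus more than double the highest Et1 signal. The means were 73.5 ± 7.74 in Et1 and 245 ± 48.7 in control arrays (SD, n = 3 each), and the log2 fold change of -1.72 (SE 0.20) passed with limma at an adjusted p = 0.0257. It was -1.93 within the low and -1.36 within the high spike-in set, and -1.65 with that set as a block (limma adjusted p = 0.00265). The call was lost without Et1 replicate 1 (limma adjusted p = 0.121), Et1 replicate 3 (0.110), control replicate 1 (0.172) or control replicate 2 (0.123), while the log2 fold change stayed between -1.81 and -1.60.

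The other 3 probe sets of Tgfb2 had the same direction. Signals of 1423250_a_at, the brightest, were 98.6, 125 and 98.4 in Et1 arrays, against 199.7, 322 and 196 in control arrays. Those of 1450923_at were 90.7, 71.0 and 82.1 in Et1 arrays, against 161, 183 and 134 in control arrays. For both, every Et1 array lay below every control array. Their log2 fold changes were -1.13 (SE 0.23) and -0.96 (SE 0.19), with limma adjusted p = 0.0942 and 0.0910, and both passed with the spike-in block (limma adjusted p = 0.0214 and 0.0289). The dimmest, 1438303_at, read 8.46, 48.2 and 27.5 in Et1 arrays, against 111, 95.1 and 61.1 in control arrays. Its log2 fold change of -1.95 (SE 0.60; limma adjusted p = 0.245) rested in part on the low signal of Et1 replicate 1 (-1.25 without it), and was -0.85 with 50 added to each signal. The 4 probe sets thus gave log2 fold changes from -1.95 to -0.96, and with 50 added from -1.25 to -0.67. The mean of 1438303_at over the Et1 arrays lay below the filter, which it passed through the control arrays.

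Tgfb3, the isoform known for palate closure and for scar-poor wound repair, was measured by 1417455_at. Its signals were 329, 417 and 211 in Et1 arrays, against 982, 875 and 628 in control arrays. Every Et1 array lay below every control array, and in each group the array or arrays of the low spike-in set were the brightest. The means were 319 ± 103 in Et1 and 829 ± 182 in control arrays (SD, n = 3 each). The log2 fold change was -1.41 (SE 0.27; limma adjusted p = 0.0834), and -1.20 with the spike-in block (SE 0.16; limma adjusted p = 0.00528). It was -1.15 within the low and -1.25 within the high set. The sets differed by -0.61 (high minus low, SE 0.16, limma adjusted p = 0.0317). Between Et1 and control, the probe set passed without control replicate 3 (limma adjusted p = 0.0406), and did not pass when any other array was left out (limma adjusted p from 0.0519 to 0.378).

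Tgfb1, the ligand studied most in fibrosis, gave another picture. Its main probe set, 1420653_at, read 251, 755 and 239 in Et1 arrays, against 817, 672 and 239.8 in control arrays. The groups overlapped: each held low-set arrays at 672 or above and high-set arrays at 251 or below. High minus low, with the group in the fit, the log2 difference was -1.63 (SE 0.12; limma adjusted p = 6.55e-05), 3.09 times lower in the high set. The difference between Et1 and control was 0.026 within the low set, 0.030 within the high set and 0.028 with that set as a block (95% interval -0.23 to 0.29). Without the block it was -0.51, with an interval of -1.75 to 0.72 and a limma adjusted p of 0.740. A second, dim probe set, 1445360_at, read 47.0, 64.9 and 44.0 in Et1 arrays, against 51.8, 44.8 and 33.6 in control arrays. Its log2 fold change was 0.26 (95% interval -0.46 to 0.98), opposite in sign to the main one, and neither passed. With the spike-in block both were positive, at 0.43 for 1445360_at (limma adjusted p = 0.515), which stood at 0.43 within the low and 0.44 within the high set.

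**Figure D2:**
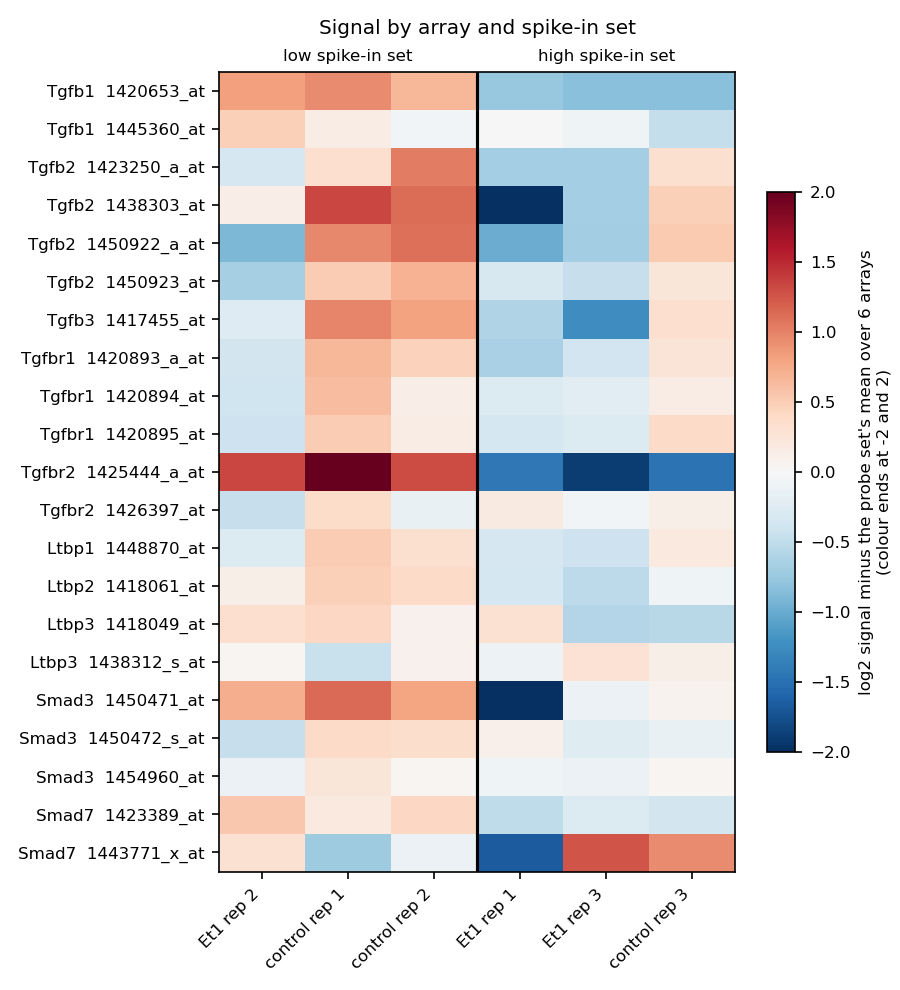
Log2 signal of each tested probe set minus its mean over the 6 arrays, with the low spike-in set left and the high set right of the line and Et1 arrays left of control arrays within each set. Tgfb1 1420653_at and Tgfbr2 1425444_a_at change colour at the line, with log2 differences of -1.63 and -3.10 (high minus low), while Tgfb2, Tgfb3 and Tgfbr1 are lower in Et1 than in control arrays on both sides.

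Of the receptors, Tgfbr1, the type I receptor kinase that phosphorylates SMAD2 and SMAD3, was measured by 3 probe sets. Its brightest, 1420895_at, read 329, 315 and 347 in Et1 arrays, against 599.7, 466 and 549.6 in control arrays. The Et1 signals lay close together and below all control signals, with means of 330.4 ± 16.4 and 538 ± 67.6 (SD, n = 3 each). The log2 fold change was -0.70 (SE 0.16; limma adjusted p = 0.120), and -0.72 with the spike-in block (limma adjusted p = 0.0145). It was -0.75 within the low and -0.70 within the high set, and this probe set differed little between the sets (high minus low 0.08, SE 0.13).

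The other probe sets of Tgfbr1 also gave lower signals in Et1 arrays, and neither passed. 1420893_a_at read 47.0, 57.2 and 56.5 in Et1 arrays, against 116, 101 and 87.7 in control arrays. 1420894_at read 91.4, 84.3 and 95.1 in Et1 arrays, against 170.0, 122 and 123 in control arrays. Neither overlapped between the groups. Their log2 fold changes were -0.92 and -0.60, with limma adjusted p = 0.134 and 0.264, and neither passed with the spike-in block (limma adjusted p = 0.0703 and 0.148).

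Tgfbr2, the type II receptor that binds the ligand, was not separated by the groups. Its bright probe set, 1426397_at, read 475, 307 and 406 in Et1 arrays, against 542, 379.9 and 457 in control arrays. The log2 fold change was -0.22, with a 95% interval of -0.70 to 0.26 (limma adjusted p = 0.708). 1425444_a_at read 9.66, 66.1 and 7.04 in Et1 arrays, against 116, 64.7 and 9.42 in control arrays. The log2 fold change of 1425444_a_at was -1.33, with a 95% interval of -3.86 to 1.21. It followed the spike-in sets, with a high minus low log2 difference of -3.10 (SE 0.55, limma adjusted p = 0.00486), where the bright probe set stood at 0.26. The mean of 1425444_a_at over the Et1 arrays, 27.6, lay below the filter, which it passed through the control arrays, so its values are a description. The last probe set, 1422019_at, stayed at or below 15.3 in every array and was not tested.

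Among the latent TGF-beta binding proteins, Ltbp1, which holds latent TGF-beta in the matrix, was lower in the Et1 arrays in its bright probe set. 1448870_at read 469, 490.2 and 446 in Et1 arrays, against 849, 743 and 678 in control arrays. Every Et1 array lay below every control array, with means of 469 ± 21.9 and 757 ± 86.4 (SD, n = 3 each). The log2 fold change was -0.69 (SE 0.15; limma adjusted p = 0.108), and -0.63 with the spike-in block (limma adjusted p = 0.0130). Its other probe sets, 1447547_at and 1419786_at, lay below the filter. The first of them read 9.76 to 19.9 in Et1 and 26.3 to 33.5 in control arrays, and the second 5.96 to 40.2 in Et1 and 4.68 to 23.7 in control arrays.

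Ltbp2, a family member that sits on elastic microfibrils and does not bind latent TGF-beta, read 991, 1378 and 879 in Et1 arrays, against 1765, 1654 and 1193 in control arrays. The groups overlapped, with control replicate 3 below Et1 replicate 2. The log2 fold change was -0.51 (SE 0.21; limma adjusted p = 0.388). It was -0.31 within the low and -0.35 within the high spike-in set, and the sets differed by -0.54 (high minus low; limma adjusted p = 0.00645).

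Ltbp3, which binds latent TGF-beta and is known for its part in bone and tooth, had 2 tested probe sets and a log2 fold change near 0 in both. 1438312_s_at read 585, 652 and 772 in Et1 arrays, against 465, 673 and 686 in control arrays (log2 fold change 0.15, 95% interval -0.29 to 0.60). 1418049_at read 307, 316 and 167 in Et1 arrays, against 333, 267 and 171 in control arrays (0.031, 95% interval -0.69 to 0.75). The lower end of the interval of 1418049_at reaches the log2 fold change of Ltbp1. Probe sets 1437833_at and 1456189_x_at stayed at or below 31.4 in every array and were not tested.

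Of the SMAD proteins, Smad3, the transducer that the type I receptor phosphorylates, had lower mean log2 signals in Et1 arrays in all 3 probe sets, and none passed. 1454960_at, the brightest, read 271, 265 and 266 in Et1 arrays, against 340.2, 295 and 297 in control arrays. The groups did not overlap, yet the log2 fold change was small at -0.21 (95% interval -0.55 to 0.12; limma adjusted p = 0.595). 1450472_s_at read 169, 115 and 134 in Et1 arrays, against 207, 202 and 143 in control arrays, a log2 fold change of -0.40 that was -0.83 within the low and 0.07 within the high spike-in set. 1450471_at read 10.3, 105 and 58.2 in Et1 arrays, against 138, 108 and 66.3 in control arrays. Its log2 fold change of -1.33 (SE 0.75) was -0.59 with 50 added to each signal and -0.35 without Et1 replicate 1, and it was -0.22 within the low and -1.44 within the high spike-in set.

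Smad7, the inhibitor that the pathway itself induces, did not separate the groups. 1423389_at read 315, 653 and 372 in Et1 arrays, against 514, 603 and 349 in control arrays. Its log2 fold change was -0.17 (95% interval -0.85 to 0.52; limma adjusted p = 0.857) and 0.10 with the spike-in block (95% interval -0.18 to 0.39), and the sets differed by -0.80 (high minus low; limma adjusted p = 0.00290). 1443771_x_at read 99.7, 389.8 and 757 in Et1 arrays, against 192, 292 and 607 in control arrays. The 2 probe sets did not follow each other across arrays: Et1 replicate 2 was the brightest array in 1423389_at and Et1 replicate 3 in 1443771_x_at, while Et1 replicate 1 was the dimmest in both.

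**Figure D3:**
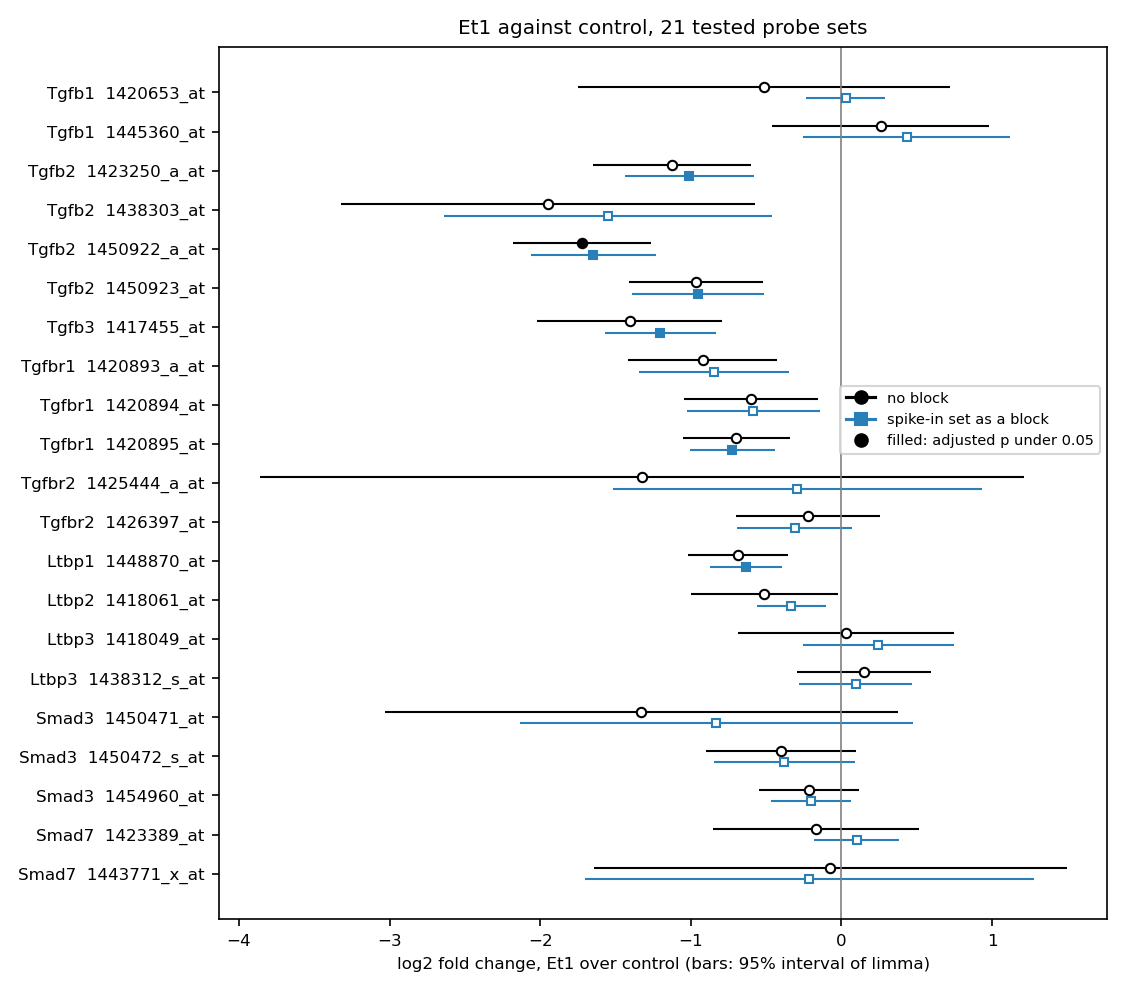
Log2 fold change (Et1 over control) of each tested probe set with its 95% limma interval, without a block (black circles) and blocking on the spike-in set (blue squares); filled symbols passed an adjusted p of 0.05. Filled are 1 probe set of Tgfb2 without the block, and 3 of Tgfb2, 1 of Tgfb3, 1 of Tgfbr1 and 1 of Ltbp1 with it.

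Taking each gene by its brightest tested probe set, 9 of the 10 members had lower and 1, Ltbp3, higher mean log2 signals in Et1 arrays, with a median log2 fold change of -0.51. Over all 11666 genes tested the median was 0.05, and 44.3% had lower means. None of the 10 passed in that probe set with limma (0.411% of all genes did), and 5 were lower at an unadjusted p under 0.05 and 0 higher (6.53% and 6.93% of all genes). With the spike-in block 4 of the 10 passed, all lower, and the median was -0.32; of all genes 4.47% passed under that block, 2.72% lower, and the median was 0.040.

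The wider pathway was described by 4 lists of other genes. Of 88 genes, 81 were tested, and with limma 0 passed the threshold in any probe set, against 60 of all 11666 genes. At an unadjusted p under 0.05, 17 were lower and 4 higher (6.53% and 6.93% of all genes). The median log2 fold change of the 81 was -0.10, and 55 had lower means, where 44.3% of all genes did. With the spike-in block 8 of the 81 were lower and 2 higher past the threshold, against 317 lower and 204 higher of the 11666 genes. The 8 include Itgb3, which passed the filter through the control arrays.

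Of 15 tested genes of latency and activation, 12 had lower means, with a median log2 fold change of -0.26. Itgb3, the beta chain of an integrin that binds latent TGF-beta, read 42.1, 22.0 and 30.0 in Et1 arrays, against 95.8, 94.5 and 78.3 in control arrays (log2 fold change -1.56; limma adjusted p = 0.0910, and 0.0277 with the spike-in block). Its mean over the Et1 arrays lay below the filter, which it passed through the control arrays, so its difference is a description. Emilin1, a matrix glycoprotein that holds back the processing of TGF-beta precursor, stood at -0.87 (limma adjusted p = 0.140), and Fbn2, a fibrillin of the microfibrils that anchor latent complexes, at -0.74 (limma adjusted p = 0.191). Thbs1, thrombospondin 1, which can activate latent TGF-beta, averaged 4696 ± 1214 in Et1 and 7744 ± 1300.1 in control arrays (SD, n = 3 each; log2 fold change -0.74, limma adjusted p = 0.201). Bgn, the bright proteoglycan biglycan, stood at -0.014.

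Of 8 accessory and type I receptor genes, 6 had lower means, with a median of -0.24. Tgfbr3, betaglycan, the coreceptor that presents TGF-beta 2 in particular, read 189.5, 103 and 158 in Et1 arrays, against 339, 235 and 306 in control arrays. Its log2 fold change was -0.99 (limma adjusted p = 0.157), and -1.14 with the spike-in block (limma adjusted p = 0.0141). Bambi, a pseudoreceptor without a kinase domain, read 225, 234 and 210.1 in Et1 arrays, against 337, 362 and 307 in control arrays (log2 fold change -0.59; limma adjusted p = 0.159, and 0.0355 with the spike-in block). Vasn, a membrane protein that traps TGF-beta, stood at -0.21 and Acvr1, a receptor mainly of BMPs, at -0.08.

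The 20 transducers and regulators around the SMAD proteins split, with 11 lower and 9 higher means and a median of -0.01. Tgif1, a corepressor of SMAD-driven transcription, read 429, 497 and 542 in Et1 arrays, against 307, 325 and 337 in control arrays (log2 fold change 0.59; limma adjusted p = 0.161, and 0.0343 with the spike-in block). Smad6, an inhibitor mainly of BMP signals, stood at -0.96 (limma adjusted p = 0.171). Stub1, a ubiquitin ligase, and Strap, a partner of receptor and SMAD7, stood at -0.33 and -0.033.

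Of 38 tested genes known as targets of TGF-beta in fibroblasts, 26 had lower and 12 higher means, with a median of -0.17. Cnn1, the actin-binding protein calponin, averaged 929 ± 180.0 in Et1 and 2064 ± 304 in control arrays (SD, n = 3 each). Its log2 fold change of -1.16 missed the threshold (limma adjusted p = 0.0510) and passed with the spike-in block (limma adjusted p = 0.00360). Adam12, a metalloprotease, stood at -0.84 and Tgfbi, a secreted matrix protein, at -1.01 (limma adjusted p = 0.0694 and 0.155, and 0.00733 and 0.0197 with the block). Acta2, the smooth muscle actin of myofibroblasts, read 11689, 9350.1 and 7030.3 in Et1 arrays, against 8145, 8681 and 8119.9 in control arrays, and Sparc, a bright matricellular protein, stood at -0.21. Cnn1 was also the brightest of the markers of smooth muscle and pericytes. Their summed signal over 7 genes was 1174 to 1835 in Et1 and 2345 to 3464 in control arrays. Without Cnn1 the sum over the other 6 genes was 448 to 767 in Et1 and 620.1 to 1173 in control arrays, which overlapped. Mcam of that list stood at -1.22 and overlapped (limma adjusted p = 0.226). With the spike-in block Mcam stood at -0.88 and passed (limma adjusted p = 0.00483). Myh11 stood at -0.73 and did not overlap (limma adjusted p = 0.264), while Cspg4, Des and Rgs5 stood at -0.27, -0.066 and 0.066 and overlapped. Kcnj8 of that list lay below the filter, and the part of such cells in these values was not tested. The sums of the keratinocyte, macrophage, melanocyte and adipocyte markers overlapped between the groups, with 6 of 9, 5 of 8, 4 of 6 and 1 of 5 above the filter. That of the 7 endothelial markers, with 2 above the filter, was 121 to 209.9 in Et1 and 103 to 126 in control arrays.

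**Figure D4:**
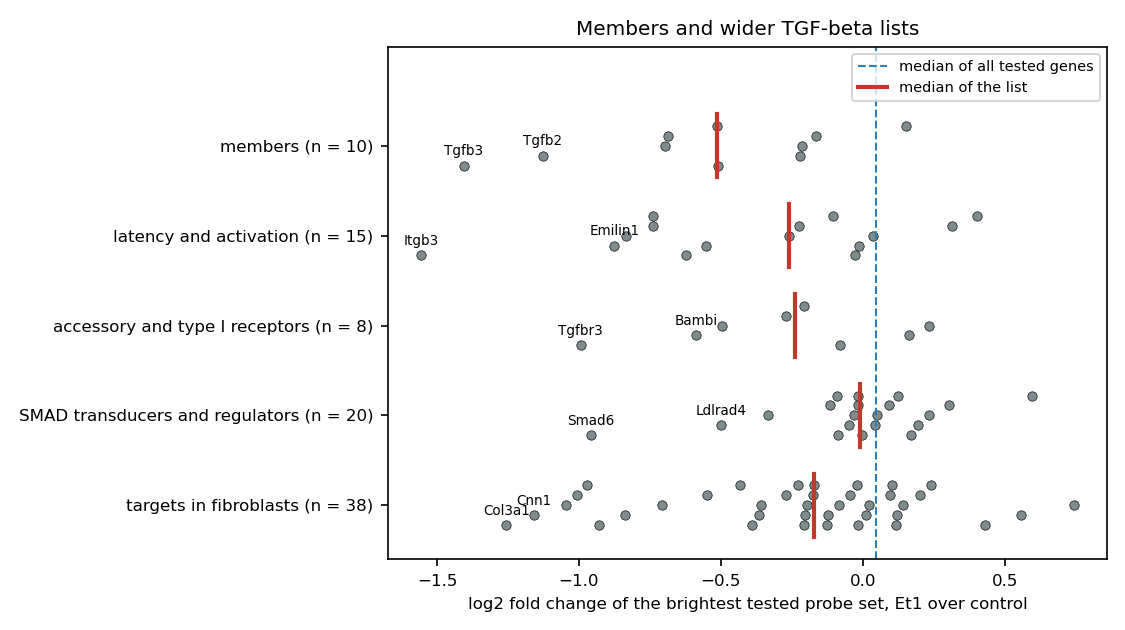
Log2 fold change (Et1 over control) of each tested gene by its brightest tested probe set, for the 10 members and the 4 wider lists, with the 2 lowest genes of each named. The median of the members (-0.51) lies further below that of all tested genes (0.05, dashed) than the medians of the lists, which run from -0.26 to -0.01.

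The genes whose pattern over the 6 arrays was closest to each ligand were found by the root mean square difference of centred log2 signals, and all share the same 6 arrays. For Tgfb1 these were Olfm2, Ctdnep1 and Jund, at 0.050, 0.082 and 0.084, with log2 differences, high minus low, of -1.69 to -1.63. For Tgfb2 they were Plpp1, Tgm2 and Vcl, at 0.16, 0.16 and 0.17, and for Tgfb3 they were Il1rl2, Col5a1 and Fam110b, at 0.10, 0.13 and 0.15. Tgfb1 differed between the spike-in sets and overlapped between the groups. Tgfb2 and Tgfb3 did not overlap between the groups, and Tgfb3 differed between the sets as well. Genes picked for the same patterns had to differ in the same way, so their differences are no separate result, and no test of them is given.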

How the data were processed

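Per the file headers, the value table holds 1 intensity signal per probe set and array of the Mouse430_2 chip. The submitters' processing notes name MAS5 as the software behind the authors' deposited intensity signals; the sources used here give neither its version nor its scaling and detection calls. Of 45101 probe sets, 64 controls were left out. Each array was scaled to the geometric mean of the 6 trimmed means, 139. Zeros (4 values) took the lowest positive signal on the same array, and no pseudocount was added before log2. limma 3.58.1 in R 4.3.3 compared Et1 with control arrays, with an intensity trend and without a block, and p-values were adjusted after Benjamini and Hochberg over 22519 probe sets. The fit was tested on simulated data with independent noise on each array. No difference between the spike-in sets was simulated, so that test does not cover such differences. The labels gave each array its group and number; the design text describes a split of cells into treated and untreated cultures, but no label ties a number to a shared culture. The numbers were therefore not taken as pairs, and whether same-numbered arrays share a culture is not known.

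Named were every probe set of the members, and of each wider list the genes past the threshold, the 3 with the smallest p and the 2 brightest. For each ligand the 3 nearest patterns were also named. Members, lists, the spike-in block and the naming rule were chosen with earlier results of these data known. Some genes of the lists, Fbn1, Lrrc32 and Itga11 among them, were not analysed here, and Nrros, Itgb6 and Itgb8 lay below the filter. Alternatives were quantile normalization, median centring, dropping the filter, raising it to the 75th percentile, 50 added before log2, no trend, the replicate number or the spike-in set as a block, leaving out each array, and averaging the probe sets of a gene.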

Additional observations from a re-analysis of the deposited data

How the results depend on the processing

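The count of member probe sets past the threshold, 1 with no block, was 0 with no intensity trend and 6 with the replicate number or the spike-in set as a block, and 0 to 2 when an array was left out. Over all probe sets 78 passed; the count was 44 with median centring, 40 with no filter, 7 with no intensity trend, 567 with the replicate block, 868 with the spike-in block, and 4 to 229 with an array left out (4 without control replicate 1 or 2, 6 without Et1 replicate 3, 10 without Et1 replicate 1, 46 without Et1 replicate 2, 229 without control replicate 3). Of the wider lists 0 genes passed, against 2 with the filter at the 75th percentile, 1 with 50 added, 11 with the replicate block, 10 with the spike-in block, 1 with the mean of probe sets per gene, and 0 to 2 with an array left out (2 without control replicate 3). The design text describes cells split into treated and untreated cultures. No label says that a number marks a shared culture, so the numbers were not taken to pair the arrays. Deviations from the group means correlated at -0.12, 0.44 and 0.45 for numbers 1, 2 and 3, and Et1 replicate 1 correlated best with control replicate 3. These values cannot decide on pairing, because the arrays of number 1 lie in different spike-in sets. Those of number 2, like those of number 3, share a set. The called probe set of Tgfb2, 1450922_a_at, passed under all settings except no intensity trend (limma adjusted p = 0.0639) and leaving out Et1 replicate 1 or 3 or control replicate 1 or 2; its adjusted p ran from 0.00265 to 0.172. Of the uncalled probe sets, the log2 fold change turned sign for Tgfb1 1420653_at (0.028 with the spike-in block), Ltbp3 1418049_at (-0.021 with median centring, -0.24 to 0.33 with an array left out), Ltbp3 1438312_s_at (-0.030 to 0.25 with an array left out), Smad7 1423389_at (0.10 with the spike-in block, -0.48 to 0.049 with an array left out) and Smad7 1443771_x_at (-0.72 to 0.74 with an array left out). The cause of these differences was not tested. The files give no background or detection value, so probe sets near the filter have the least certain fold changes.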
